A study of Mus musculus with 2 samples.

Results

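Cycling macrophages of the mouse pancreatic islet were taken as those islet macrophages whose RNA held transcripts of the cell division programme. A barcode counted as a cell with at least 500 detected genes, at least 1000 unique molecular identifiers (UMIs, each standing for 1 captured transcript) and at most 10% mitochondrial UMIs. Macrophages were the cells in which C1qa, C1qb and C1qc, which encode the chains of complement C1q, summed to 5 UMIs or more. A macrophage was a member with at least 3 UMIs of Top2a, Mki67, Birc5, Pclaf, Rrm2 and Ube2c together, called cycle UMIs here. This gave 116 cycling macrophages among 2863 macrophages and 3092 kept cells. The other 2747 macrophages are called the remaining macrophages.

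The series concerns antioxidant defences of islet-resident macrophages. The islets of 6 to 8 chow-fed C57BL/6J males were pooled for a library, and live immune cells (negative for the dead-cell dye DAPI and for epithelial Epcam, positive for the leukocyte protein CD45) were sorted into droplets that tag the 3′ ends of polyadenylated RNA. The library labelled 1 week held 78 members among 1243 macrophages, and the library labelled 12 weeks held 38 among 1620. What the weeks count is not stated in the labels, which also give no mouse age, no genotype beyond the strain and no treatment beyond the diet. Each time label had 1 library, so the time label, the pool of mice and the library cannot be told apart.

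Cells copy their DNA in S phase, with DNA replication and nucleotide synthesis genes driven largely by E2F transcription factors, and separate the copies in mitosis, with spindle, kinetochore and cyclin B genes driven largely by the B-MYB and FOXM1 factors with the MuvB complex. Tissue-resident macrophages of many organs can renew themselves by local division under CSF1, the ligand of the receptor Csf1r. Mki67 encodes Ki-67, a nuclear protein made in cycling cells that is the usual histological stain for proliferation.

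The cycle UMIs of members lay between the threshold of 3 and a maximum of 42 in a cell at 1 week and 40 at 12 weeks. The median was 7 at 1 week and 4 at 12 weeks. Just inside the threshold, 33 of 78 members at 1 week and 24 of 38 at 12 weeks had 3 to 5 cycle UMIs. Just outside it, 29 and 26 macrophages had exactly 2. At the upper end, 34 members at 1 week and 11 at 12 weeks had at least 10. In the remaining macrophages most cells had none: 1041 of all 1243 macrophages at 1 week and 1471 of 1620 at 12 weeks had 0 cycle UMIs.

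Members fell into different kinds by which rule gene supplied their cycle UMIs. In 41 of the 116 members every cycle UMI came from Mki67 and the other 5 rule genes had 0 UMIs: 17 members at 1 week (21.8%) and 24 at 12 weeks (63.2%). These are called Mki67-only members. Another 67 members had at least 3 UMIs of the other 5 genes, 54 at 1 week (69.2%) and 13 at 12 weeks (34.2%), and are called multi-gene members. The last 8 members, 7 and 1, had 1 or 2 such UMIs. Mki67-only members had 3 to 7 cycle UMIs, while every member with at least 10 was a multi-gene member. This split was made after the values were seen and is given as a description with no test.

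**Figure D1:**
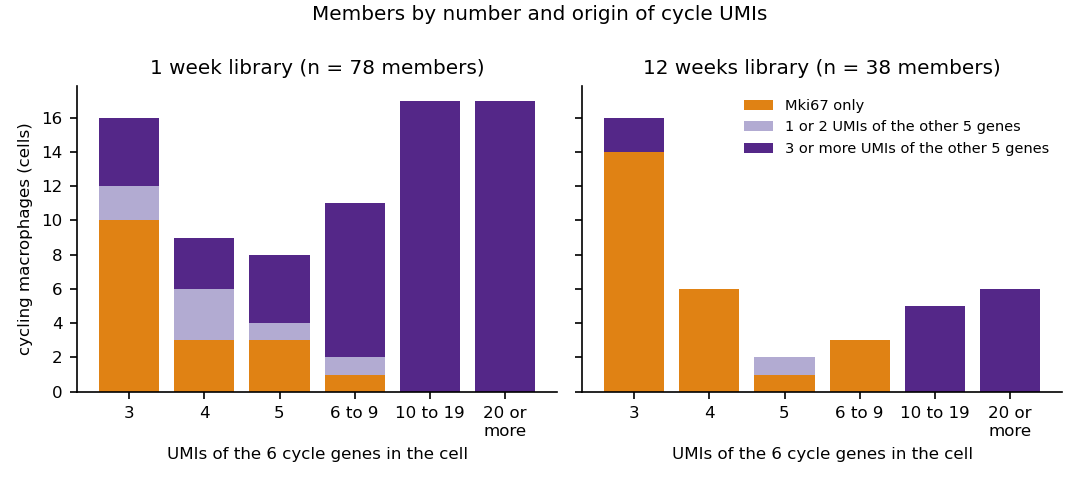
Number of cycling macrophages (vertical axis, cells) by the UMIs of the 6 cycle genes in the cell (horizontal axis), in the 1-week and the 12-week library. Colours give the origin of those UMIs: Mki67 alone, 1 or 2 UMIs of the other 5 genes, or 3 or more of them. All cells with 10 or more cycle UMIs (34 and 11) are multi-gene members, and Mki67-only members sit at 3 to 7.

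Transcripts that the rule did not use separated these kinds of member. The lists of DNA replication genes (47 genes) and mitosis genes (66 genes) hold none of the rule genes, and each cell was thinned at random to 4000 UMIs so that depth was equal. Multi-gene members had a median of 27 UMIs of both lists together at 1 week and 28 at 12 weeks, with ranges of 0 to 44 and 3 to 62. Mki67-only members had a median of 3 in each library, with ranges of 0 to 7 and 0 to 6. The remaining macrophages had a median of 2 in each library. At least 10 such UMIs were found in 42 of 49 multi-gene members at 1 week and in 11 of 13 at 12 weeks, but in 0 of 17 and 0 of 24 Mki67-only members. Among the remaining macrophages 23 of 933 and 3 of 1418 reached 10. The label of cycling macrophage was thus met by other cell cycle transcripts in most multi-gene members and not in the 41 Mki67-only members, to which the name is given by the rule alone.

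**Figure D2:**
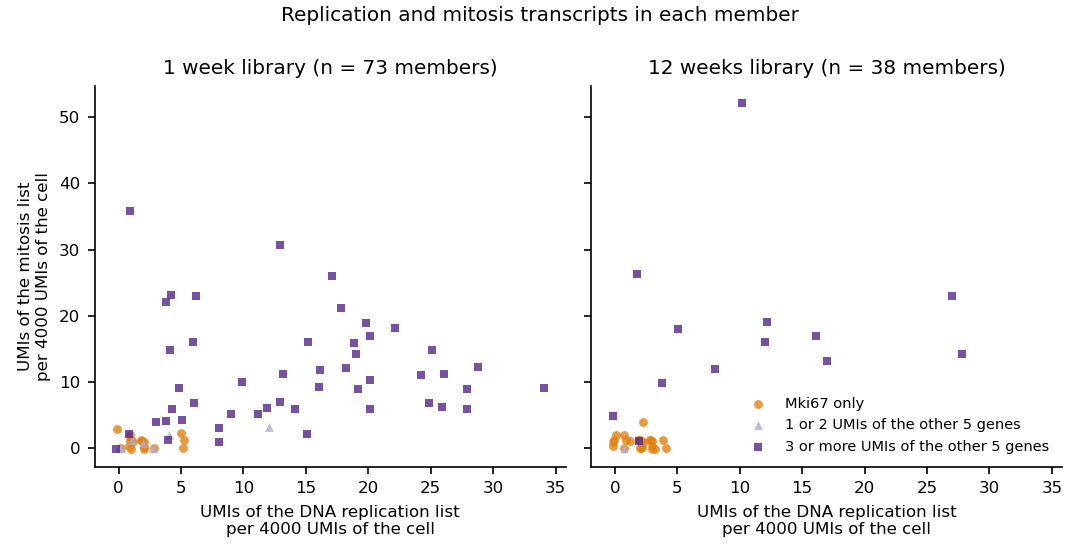
UMIs of the DNA replication list (horizontal axis) against UMIs of the mitosis list (vertical axis), both per 4000 UMIs of the cell, for each member with at least 4000 UMIs (73 at 1 week, 38 at 12 weeks). Points are moved by up to 0.25 UMI so that they do not hide each other. Mki67-only members lie near the origin with at most 7 UMIs of both lists, and multi-gene members spread along both axes.

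Mki67 also gave most of the cycle UMIs outside the members. It supplied 105 of the 153 cycle UMIs in the remaining macrophages at 1 week (68.6%) and 98 of 137 at 12 weeks (71.5%). In multi-gene members it supplied 104 of 787 (13.2%) and 65 of 253 (25.7%). A Mki67 UMI was present in 7.04% of remaining macrophages at 1 week and in 11.3% of the 97 kept cells outside the macrophage rule. At 12 weeks it was present in 4.87% and in 5.30% of 132. Those outside cells include cycling cells, so they are no clean background. Mki67-only members were also deep at 1 week, with a median of 20776 UMIs a cell against 12323 in multi-gene members and 7245 in the remaining macrophages. At 12 weeks these medians were 8364, 14225 and 6876. A threshold in UMIs is reached more easily in a deep cell. Thinned to 4000 UMIs, Mki67-only members had a median of 1 cycle UMI at 1 week (range 0 to 4) and 2 at 12 weeks (0 to 3). Multi-gene members had medians of 4 and 6, and the remaining macrophages 0 in each library. The part of depth in the choice of Mki67-only members was not tested.

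The rule genes themselves are given as a description. Top2a (DNA topoisomerase II alpha, chr11:98992943-99024189 on GRCm38) had 130 CPM (UMIs of a gene divided by all UMIs of the summed cells, scaled to a fixed total) in members at 1 week (95% Poisson interval 111 to 151) and 145 at 12 weeks (111 to 187), against 2.07 and 1.09 in the remaining macrophages. Pclaf, a partner of the replication clamp PCNA, had 247 CPM in members at 1 week and 102 at 12 weeks. Mki67 (chr7:135689784-135716361) had 147 CPM at 1 week (127 to 170) and 383 at 12 weeks (326 to 447). Birc5 (survivin, of the chromosomal passenger complex) had 77.0 and 72.7 CPM, Rrm2 (a subunit of ribonucleotide reductase) had 45.1 and 53.3, and Ube2c (the E2 enzyme of the anaphase-promoting complex) had 38.9 and 87.2. At 12 weeks a single cell held 21 of the 36 Ube2c UMIs, and Mki67-only members held 90 of the 158 Mki67 UMIs. No comparison between the libraries is drawn from these genes, which chose the members.

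The starts of cell cycle genes carry short motifs known as docking sites of these factors: the CHR element bound by MuvB (TTTGAA), the CCAAT box bound by NF-Y (CCAAT) and an E2F-like site (TTTNNCGC, N being any base). They were searched on both strands in RefSeq promoter windows of GRCm38.p6, from 250 bases before to 50 after the start. Each of 20595 genes was given 1 window, the one nearest the annotated 5′ end of the gene. The CHR element was held by 37 of the 52 matched mitosis genes (71.2%) and by 16.9% of all windows. Of 36 matched DNA replication genes 6 held it (16.7%). The E2F-like site was held by 16 of 36 replication genes (44.4%), by 9 of 52 mitosis genes (17.3%) and by 5.94% of all windows. A CHR element together with a CCAAT box was found in 31 of 52 mitosis genes (59.6%) and in 6.67% of all windows. The last 200 bases of 6 windows, ending 50 bases after the start, show both arrangements, with matches in capitals. Prc1 (chr7:80294301-80294500, forward strand), Cdk1 (chr10:69352863-69353062, reverse strand) and Ube2c (chr2:164769779-164769978, forward) are mitotic genes with CHR and CCAAT matches, and Mki67 (chr7:135716330-135716529, reverse) is shown because the membership turned on it. Cdk1 also holds 2 E2F-like matches in the printed bases, so it carries both kinds of site. Pclaf (chr9:65890173-65890372, forward) and Mcm3 (chr1:20820263-20820462, reverse) are replication genes with E2F-like and CCAAT matches and no CHR element. Each is printed 5′ to 3′ on the gene's strand, and a capital run that reads as the reverse complement of a motif is a match on the opposite strand.
Prc1: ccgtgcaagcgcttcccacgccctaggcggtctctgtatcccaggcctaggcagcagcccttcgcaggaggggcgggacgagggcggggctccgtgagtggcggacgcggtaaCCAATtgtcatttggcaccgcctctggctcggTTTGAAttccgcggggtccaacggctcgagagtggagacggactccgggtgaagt
Cdk1: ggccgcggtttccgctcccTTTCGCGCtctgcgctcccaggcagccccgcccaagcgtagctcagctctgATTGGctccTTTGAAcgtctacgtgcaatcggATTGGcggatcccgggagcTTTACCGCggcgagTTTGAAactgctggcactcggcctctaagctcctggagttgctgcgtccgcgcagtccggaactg
Ube2c: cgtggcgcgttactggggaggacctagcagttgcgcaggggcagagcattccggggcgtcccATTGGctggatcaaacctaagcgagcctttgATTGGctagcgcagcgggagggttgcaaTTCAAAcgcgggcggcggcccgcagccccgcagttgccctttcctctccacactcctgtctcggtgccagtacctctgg
Mki67: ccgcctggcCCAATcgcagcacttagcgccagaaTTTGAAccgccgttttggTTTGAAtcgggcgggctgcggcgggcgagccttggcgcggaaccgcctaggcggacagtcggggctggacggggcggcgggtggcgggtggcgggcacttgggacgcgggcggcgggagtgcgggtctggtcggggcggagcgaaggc
Pclaf: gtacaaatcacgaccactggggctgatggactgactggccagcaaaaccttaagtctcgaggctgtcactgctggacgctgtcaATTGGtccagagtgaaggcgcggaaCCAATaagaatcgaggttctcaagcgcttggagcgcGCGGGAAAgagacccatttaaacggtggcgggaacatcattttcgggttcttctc
Mcm3: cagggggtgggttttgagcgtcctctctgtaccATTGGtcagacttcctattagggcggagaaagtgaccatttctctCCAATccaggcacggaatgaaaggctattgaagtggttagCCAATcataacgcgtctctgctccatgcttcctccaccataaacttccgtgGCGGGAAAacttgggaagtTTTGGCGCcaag
A match is a description of these letters and was not tested for binding.

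In the comparison of all 78 and 38 members with the remaining macrophages, 380 of 10125 tested genes rose (3.75%) and 244 fell (2.41%) at an adjusted p under 0.05. UMI counts were summed over the cells of each class in each library, and the 4 sums were tested with edgeR's quasi-likelihood test, with the library as a block. The 2 libraries are the only replication, and 1 residual degree of freedom is left, so the spread of a gene is borrowed almost wholly from the other genes. Of the 624 genes called, 602 moved the same way in both libraries. The calls were made on these same libraries, so this agreement is largely built in and is no independent support. Fold changes below are scaled so that the median tested gene is at -0.02 on the log2 scale. Without that scaling, fold changes were 0.21 higher in the median, and 553 genes rose and 89 fell, so the higher calls made up 86.1% of calls in place of 60.9%. CPM values are not scaled in this way.

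Mitosis genes rose most widely. Of 58 tested, 54 rose and none fell, with a median log2 fold change of 4.53. A filter on low counts chose the genes tested. Genes nearly absent from the remaining macrophages, such as Cdca3, Esco2, Pbk and Plk1, passed it through the members alone. They could not have been called lower, and the same applies to such genes in the lists below. Without the filter 52 of 66 mitosis genes rose and none fell, with a median of 4.46. Cdca3, which triggers mitotic entry, had 33 UMIs in members at 1 week (25.7 CPM) and 19 at 12 weeks (46.05 CPM), against 0 UMIs and 0.272 CPM in the remaining macrophages, which is 7.64 ± 0.67 higher as a log2 fold change with its SE (edgeR adjusted p = 1.2e-15). Esco2, which ties sister chromatids together, had 18.7 and 12.1 CPM against 0 and 0.0907 (7.61 ± 1.00, edgeR adjusted p = 7.2e-09). Pbk, a mitotic kinase, and Plk1, the polo-like kinase of spindle assembly, had 0 UMIs in the remaining macrophages of both libraries. Against a floor of 3 UMIs per library, Pbk with 37 and 9 UMIs was at least 97.1-fold and 80.2-fold higher, and Plk1 with 11 and 4 UMIs at least 28.9-fold and 35.6-fold. The list median did not move when both were set at these bounds (4.53). Cdk1, the kinase that drives mitosis, had 38.9 CPM against 0.790 at 1 week, and Prc1, which bundles the spindle midzone, had 49.8 against 0.889. At 12 weeks Cdk1 had 14 UMIs in 5 of 38 members, 6 of them in the top cell, against 5 in the remaining macrophages. Neither gene was picked by the rule for named genes.

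DNA replication genes rose in 40 of 46 cases with none lower and a median log2 fold change of 2.44. Without the filter on low counts 39 of 47 rose and none fell. Ccne2, a cyclin of S phase entry, had 24.1 CPM against 0.395 at 1 week and 19.4 against 0.635 at 12 weeks (5.17 ± 0.65, edgeR adjusted p = 1.8e-09). Ccne1 moved with it (4.70 ± 1.03, edgeR adjusted p = 0.00067), on only 11 and 3 UMIs. Dtl, which targets licensing factors for destruction in S phase, rose from 1.09 to 25.7 CPM at 1 week and from 0.181 to 14.5 at 12 weeks. E2f8, a repressor of the E2F family, rose by 4.78 ± 0.91 on 16 and 3 UMIs. Pcna, the sliding clamp, had 219 CPM against 114 at 1 week and 145 against 111 at 12 weeks and did not pass (edgeR adjusted p = 0.12). Pcna was picked after its value was seen.

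Genes for the supply of nucleotides and the packing of DNA had smaller medians. Of 19 nucleotide synthesis genes 7 rose and none fell, with a median of 1.07. Thymidine kinase Tk1 had 47.5 CPM against 2.77 at 1 week and 17.0 against 0.997 at 12 weeks (3.87 ± 0.46, edgeR adjusted p = 3.1e-10). Tyms, Dut and Rrm1, which make thymidylate, remove dUTP and reduce ribonucleotides, rose by 3.48, 3.46 and 3.27. Of 13 DNA repair and checkpoint genes 8 rose, led by Bard1 (6.11 ± 1.15, on 9 and 5 UMIs) and Rad51ap1 (4.84 ± 0.76), both of homologous recombination. Of 28 chromatin protein and tubulin genes 18 rose, with a median of 0.99. Stmn1 (stathmin, a microtubule-destabilising protein) had 415 CPM against 17.98 at 1 week and 502 against 19.1 at 12 weeks, 4.40 ± 0.19 (edgeR adjusted p = 3.9e-33). Tubb5 (beta-tubulin) had 750 against 96.2 and 354 against 42.3 CPM (2.79 ± 0.17), and the histone chaperone Asf1b rose by 5.32 ± 0.57.

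Replication-dependent histone genes were gathered into a list after the values were seen. Of 67 listed, 31 were tested, of which 21 rose and none fell, with a median log2 fold change of 2.94. Some passed the filter on low counts through the members alone. Hist1h1b, a linker histone, had 51.3 CPM in members against 0.198 in the remaining macrophages at 1 week and 216 against 0.907 at 12 weeks (7.63 ± 0.35, edgeR adjusted p = 2.3e-31). Hist1h2ap had 35.8 CPM at 1 week and 865 at 12 weeks. Summed over the family, members had 531 CPM at 1 week and 2343 at 12 weeks, and at 12 weeks 4 of 38 cells held 608 of the 967 UMIs (62.9%), with 260 in the top cell. These transcripts largely lack poly(A) tails, so a kit that captures poly(A) reads only a part of them, and near-identical copies of the cluster may share reads.

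**Figure D3:**
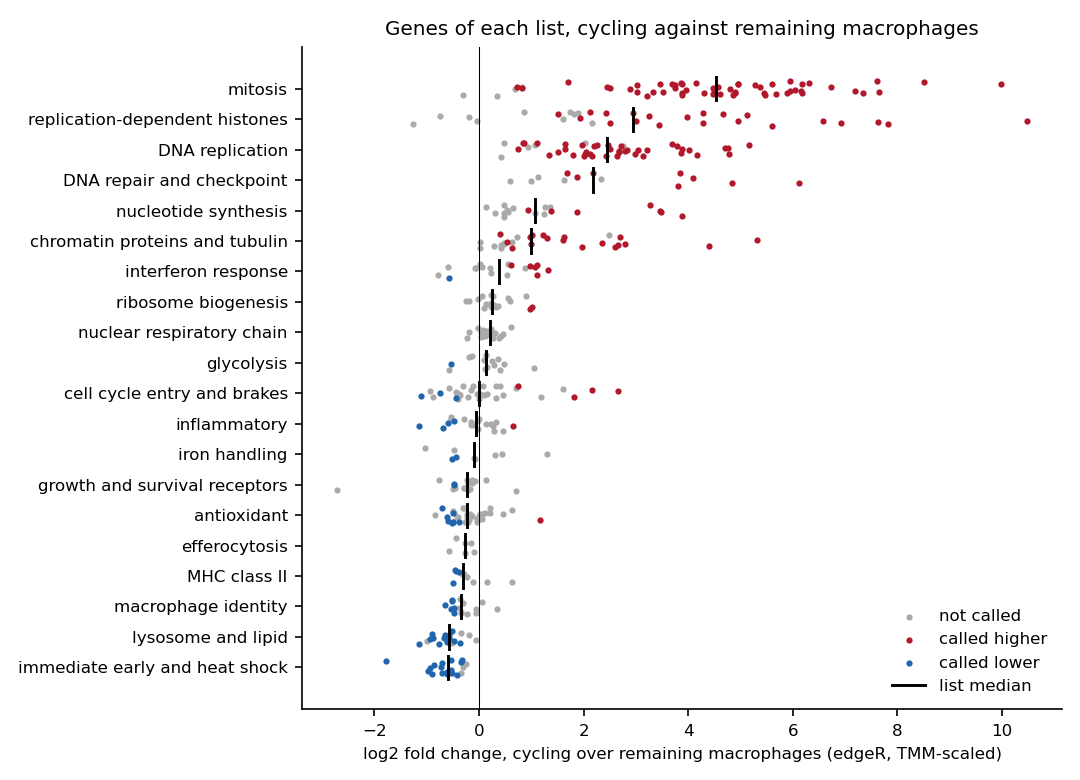
Log2 fold change of cycling over remaining macrophages (horizontal axis, edgeR with TMM scaling) for each tested gene of each list (rows, ordered by median). Red genes were called higher, blue genes lower at an adjusted p under 0.05, grey genes were not called, and black bars mark list medians. Mitosis (median 4.53) and DNA replication (2.44) stand at the top, and immediate early and heat shock genes (-0.59) and lysosome and lipid genes (-0.58) at the bottom.

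Genes that govern entry into the cycle moved far less than the machinery. Of 33 tested 4 rose and 3 fell, and the median was 0.00. The genes that rose included brakes as well as drivers: Cdkn2c and Cdkn2d, inhibitors of CDK4 and CDK6, rose by 2.66 ± 0.53 (edgeR adjusted p = 0.00016) and 1.81 ± 0.43 (edgeR adjusted p = 0.0019), and the activator E2f2 by 2.16 ± 0.49 (edgeR adjusted p = 0.0011). Cdk4 rose by 0.75. The p53 targets Cdkn1a (-0.43 ± 0.14, edgeR adjusted p = 0.041) and Gadd45a (-1.11 ± 0.33, edgeR adjusted p = 0.027) fell, although Gadd45a passed in only 2 of 17 alternative analyses and Cdkn1a in 6, and Cdkn1a had 666 CPM against 691 at 12 weeks. By DESeq2, without the library block and without scaling 0 genes of this list were lower. The call of Cdkn2d held in 9 of 17. D-type cyclins did not pass: Ccnd1 stood at 83.2 CPM against 50.6 at 1 week and 38.8 against 35.0 at 12 weeks, Ccnd2 at 0.16 below and Ccnd3 at 0.70 above on the log2 scale. Myc (-0.57 ± 0.47), Maf (-0.36 ± 0.30) and Cdkn1b (0.33 ± 0.32) did not pass. Maf encodes a transcription factor known to restrain macrophage self-renewal. Myc had only 12 and 3 UMIs in members.

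Members kept the macrophage programme at a somewhat lower level. All 9 macrophage markers were detected in members of both libraries, and 78 of 78 and 38 of 38 members had at least 2 UMIs of them. Of 16 macrophage identity genes 6 fell and none rose, with a median log2 fold change of -0.35. Lyz2 (lysozyme) had 1914 CPM against 2664 at 1 week and 1832 against 2375 at 12 weeks (-0.64 ± 0.10, edgeR adjusted p = 3.3e-07). By DESeq2 1 gene of the list was lower, and without scaling 3. Adgre1 (F4/80) fell by 0.54 ± 0.17 on the log2 scale (a call that held in 5 of 17 alternatives), Ctss (cathepsin S) by 0.52 and Cd14 by 0.52. Csf1r had 487 CPM against 533 at 1 week and 364 against 481 at 12 weeks (-0.48 ± 0.14, edgeR adjusted p = 0.027), and its call held in 4 of 17 alternatives, with the same sign in all 17. No growth or survival receptor rose among 17 tested, and Tyrobp, the adaptor of Trem2, fell (-0.47 ± 0.10).

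Stress-inducible and lysosomal genes were lower in members. Of 21 immediate early and heat shock genes 17 fell and none rose, with a median of -0.59. Hspb1 (a small heat shock protein) had 66.1 CPM against 227 at 1 week and 410 against 1055 at 12 weeks (-1.78 ± 0.15, edgeR adjusted p = 3.8e-16). Atf3 fell by 0.97 on the log2 scale, Fosb by 0.94 and Jund by 0.89. The number of calls in this list depended on the analysis, with 5 lower genes by DESeq2, 6 against remaining macrophages at the depth of members and 10 at 4000 UMIs a cell. Of 19 lysosome and lipid genes 13 fell and none rose, with a median of -0.58, and 7 were lower by DESeq2, 7 without scaling and 6 against remaining macrophages at the depth of members. Apoe (apolipoprotein E) had 17014 CPM against 26692 at 1 week and 21891 against 29585 at 12 weeks (-0.76 ± 0.05, edgeR adjusted p = 1.5e-20). Cathepsins Ctsl (-1.15) and Ctsd (-0.94), the tetraspanin Cd63 (-0.91) and the fatty acid receptor Cd36 (-0.87) fell with it.

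Antioxidant genes, the subject of the series, fell in 8 of 35 cases and rose in 1. Hmox1 (heme oxygenase) had 1328 CPM against 1872 at 1 week and 2685 against 3798 at 12 weeks (-0.72 ± 0.09, edgeR adjusted p = 7.7e-09). Metallothionein Mt2 fell by 0.62, Gclm (a subunit of the first enzyme of glutathione synthesis) by 0.60, Srxn1 (sulfiredoxin) by 0.51, Prdx1 (peroxiredoxin) by 0.50 and Nfe2l2 (NRF2, the activator of this programme) by 0.50 on the log2 scale. Prdx4, the peroxiredoxin of the endoplasmic reticulum, was the gene that rose, from 40.9 to 87.9 CPM at 1 week and from 32.4 to 109 at 12 weeks (1.17 ± 0.20, edgeR adjusted p = 1.2e-05). Txnrd1 (-0.27 ± 0.12) and Gclc (-0.49 ± 0.20) did not pass. The iron stores Ftl1 (-0.53 ± 0.06) and Fth1 (-0.44 ± 0.05) fell, and no other iron gene of the 9 tested passed. The iron list's median was -0.09, and 0.12 without the scaling. Tfrc, the transferrin receptor, stood at 1.31 ± 0.65 on 8 and 5 UMIs and did not pass. The MHC class II genes H2-Aa, H2-Ab1, H2-Eb1 and Cd74 fell by 0.39 to 0.50, 4 of 10 tested. The calls of Gclm and Srxn1 held in 5 of 17 alternatives each. By DESeq2 2 antioxidant genes and 0 MHC class II genes were lower, and without the scaling of fold changes 4 and 3 were. For Cd74, 26442 CPM in members stood against 31831 at 1 week and 26564 against 32633 at 12 weeks.

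Apoe, Hmox1 and Cd74 were lowest in the multi-gene members, and so were the summed levels of their lists, a description with no test. Apoe had 12205 CPM in multi-gene members at 1 week, 23938 in Mki67-only members and 26692 in the remaining macrophages, and 17120, 25141 and 29585 at 12 weeks. Hmox1 had 812, 1962 and 1872 CPM at 1 week and 1838, 3194 and 3798 at 12 weeks. Cd74 had 22214, 32251 and 31831 CPM at 1 week and 21918, 29976 and 32633 at 12 weeks. At 4000 UMIs a cell the lysosome and lipid list had a median of 67 UMIs in multi-gene members, 124 in Mki67-only members and 144 in the remaining macrophages at 1 week, and 81, 132 and 156 at 12 weeks. The antioxidant list had 32, 73 and 58 at 1 week and 77, 84.5 and 104 at 12 weeks. MHC class II had 183, 266 and 283 at 1 week and 219, 267 and 288 at 12 weeks. The chromatin and tubulin list ran the other way, with 72, 20 and 20 at 1 week and 74, 20 and 20 at 12 weeks. C1q transcripts were not lower in multi-gene members, with medians of 50, 35 and 38 UMIs at 1 week and 44, 31.5 and 34 at 12 weeks, though C1q chose the macrophages. The summed immediate early and heat shock list was an exception at 1 week, with a median of 59 in multi-gene members, 40 in Mki67-only members and 46 in the remaining macrophages. Such sums weigh abundant genes most. By unscaled log2 ratios of multi-gene members to remaining macrophages, 18 of 35 antioxidant genes were above 0 at 1 week and 15 at 12 weeks. For MHC class II these counts were 1 and 6 of 10, for lysosome and lipid 2 and 4 of 19. For immediate early and heat shock they were 7 and 1 of 21. The median of all tested genes was 0.29 and 0.49.

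**Figure D4:**
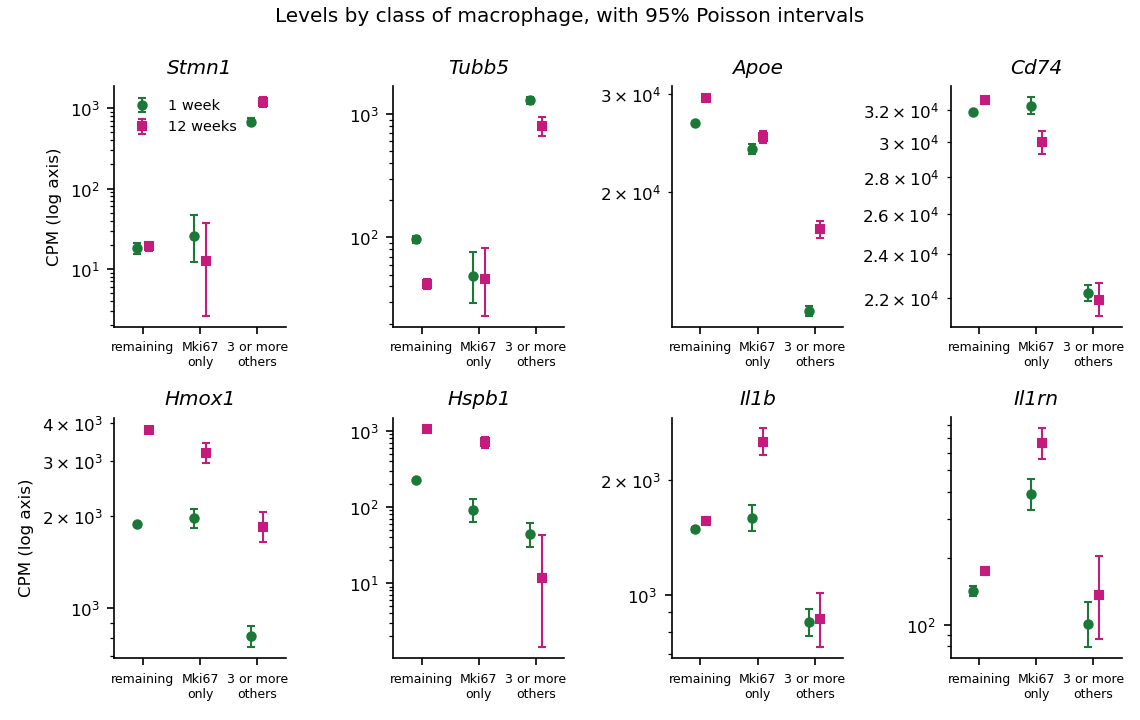
CPM (log axis, a separate range for each gene) of 8 genes in the remaining macrophages, Mki67-only members and multi-gene members of the 1-week (circles) and 12-week (squares) library, with 95% Poisson intervals that cover counting error only. Stmn1 and Tubb5 are high in multi-gene members alone, Apoe, Cd74, Hmox1, Hspb1 and Il1b are lowest there, and Il1rn is highest in Mki67-only members.

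When members were chosen by at least 3 UMIs of the 5 genes other than Mki67 (54 and 13 cells, an analysis added after the values were seen), 536 genes rose and 472 fell, of which 356 and 196 were among the 380 and 244. Chromatin and tubulin genes then rose in 26 of 28 cases, nucleotide synthesis genes in 9 of 19 and antioxidant genes fell in 11 of 35. Calls over all genes went up as well. Higher calls went from 380 of 10125 tested genes to 536 of 9998, and lower calls from 244 to 472. The change from 8 to 11 lower antioxidant genes is thus no result about that list. The inflammatory list changed most, from 4 of 20 lower to 14 of 20 lower, and its median from -0.06 to -0.91. Without the scaling of fold changes the median with all members was 0.16. Il1b, the cytokine interleukin 1 beta, was not called with all members (-0.29 ± 0.11, edgeR adjusted p = 0.13) and fell with members chosen without Mki67 (-1.18 ± 0.22, edgeR adjusted p = 3.1e-06). Il1rn, the receptor antagonist of that cytokine, went from higher (0.65 ± 0.17, edgeR adjusted p = 0.0098) to lower (-0.85 ± 0.28, edgeR adjusted p = 0.028). Its level was 390 CPM in Mki67-only members at 1 week against 101 in multi-gene members and 141 in the remaining macrophages, and 661, 136 and 175 at 12 weeks. Among the other inflammatory genes, the neutrophil-attracting chemokines Cxcl2 (-0.68 ± 0.09) and Cxcl3 (-1.16 ± 0.23) fell with all members. Il1a and Ccl3 also passed as lower, but both were lower at 1 week alone, with unscaled log2 ratios of -0.69 and 0.09 for Il1a and -0.85 and 0.36 for Ccl3 at 1 and 12 weeks.

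Interferon response genes rose in 6 of 18 cases and fell in 1, Bst2. The higher calls were 2 by DESeq2, 1 at 2000 UMIs a cell, 0 without the library block, and 1, with a list median of -0.07, when members were chosen by Pclaf and Rrm2. Ifit1 had 96.5 CPM against 71.4 at 1 week and 570 against 95.02 at 12 weeks (1.33 ± 0.22, edgeR adjusted p = 3.9e-06). Cxcl10, a T cell chemokine, rose by 1.10 and the antiviral Rsad2 by 1.10. These values rest on few cells. At 12 weeks 4 of the 38 members held 1492 of the 1974 UMIs of the list (75.6%), and the top cell held 795. At 1 week 4 of 78 held 932 of 2977 (31.3%). In the remaining macrophages the top 4 cells held 4.69% and 5.04%. At 4000 UMIs a cell the list's median was 4 in multi-gene members, 4 in Mki67-only members and 4 in the remaining macrophages at 1 week, and 5, 5.5 and 4 at 12 weeks.

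Energy and biosynthesis genes changed little under the test with all members. Of 20 nuclear respiratory chain genes 0 passed edgeR's test or DESeq2, and 3 were higher at an unadjusted p under 0.05. The list's median was 0.20, and Cox4i1 (-0.19 ± 0.13) and Cox8a (0.11 ± 0.14) had the highest levels. By unscaled levels the list had 5596 CPM in members against 4312 at 1 week and 4311 against 3684 at 12 weeks. At 4000 UMIs a cell its median was 28 UMIs in multi-gene members, 16 in Mki67-only members and 16 in the remaining macrophages at 1 week, and 23, 13.5 and 15 at 12 weeks. In the list of 18 genes named ribosome biogenesis, Srm and Dkc1 rose. Srm (spermidine synthase, an enzyme of polyamine synthesis) rose by 1.01 ± 0.32 (edgeR adjusted p = 0.037). Dkc1 (a nucleolar pseudouridine synthase) rose by 0.98 ± 0.32 (edgeR adjusted p = 0.048). Each passed in only 5 of 17 alternatives, 0 genes of the list passed by DESeq2 or at 4000 UMIs a cell, and Srm at 12 weeks had 9.69 CPM against 9.07 on 4 UMIs. Of 14 glycolysis genes Aldoa fell (-0.53 ± 0.16), which held in 6 of 17 alternatives. By DESeq2 0 glycolysis genes passed, and without scaling 3 were higher and 0 lower. The unscaled sum of the list was 2781 CPM in members against 1972 at 1 week and 1929 against 1895 at 12 weeks. In multi-gene members alone, median unscaled log2 ratios to the remaining macrophages were 0.92 and 0.70 for respiratory chain genes at 1 and 12 weeks. They were 0.77 and 0.53 for ribosome biogenesis and 0.67 and 0.48 for glycolysis, against 0.29 and 0.49 for all tested genes. With members chosen without Mki67, 1 of 20, 3 of 18 and 1 of 14 of these genes rose, and 2 glycolysis genes fell. Of the efferocytosis genes, 0 of 6 efferocytosis genes passed (1 lower at an unadjusted p under 0.05 by edgeR, 0 by DESeq2), Axl at -0.16 ± 0.16 and Itgb5 at -0.27 ± 0.18.

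Outside the lists, the highest fold changes among called genes with at least 20 CPM included the histone genes above, the noncoding RNA Lockd (5.16 ± 0.64), Fbxo5 (3.69 ± 0.57), which inhibits the anaphase-promoting complex, the condensin subunit Ncapd3 (2.44 ± 0.46) and the nuclear envelope gene Nrm (2.08 ± 0.41). The lowest included Scg2, a secretory granule protein of endocrine cells (-3.23 ± 0.38), Tcp11l2 (-1.72 ± 0.35), the histone methyltransferase gene Kmt5b (-1.43 ± 0.36), the lysosomal sialidase Neu1 (-1.18 ± 0.29), Lats2 of the Hippo pathway (-1.10 ± 0.32) and Tnfrsf12a, the TWEAK receptor (-1.10 ± 0.20). Of 17 alternatives Neu1 passed in 5, Lats2 in 6 with a value as small as -0.06, and Kmt5b in 9. Scg2 passed in 13, with values from -6.04 to -0.22. Some remaining macrophages were rich in hormone RNA, as given below, and their part in the fall of Scg2 was not tested.

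Markers of other blood cells had few UMIs in most members, and single members were rich in them. At 1 week at least 2 B cell marker UMIs were held by 30.8% of members and 15.6% of the remaining macrophages. At 12 weeks these shares were 15.8% and 8.72%. For monocyte markers they were 20.5% and 7.12%, then 21.1% and 3.60%. By edgeR 2 of 3 tested neutrophil and 1 of 2 erythroid markers were called higher, against 3.75% of all genes. In members 1 cell held 217 of 229 neutrophil marker UMIs at 12 weeks. At 12 weeks 2 of the 13 multi-gene members held 63 and 52 UMIs of B cell markers, with 40 and 25 cycle UMIs, 6 plasma cell marker UMIs each and only 13 and 21 C1q UMIs. A Mki67-only member at 12 weeks held 217 neutrophil marker UMIs and 240 interferon UMIs, and another held 30 T cell marker UMIs. At 1 week a Mki67-only member held 286 erythroid marker UMIs. Mixed droplets were cells with at least 2 marker UMIs of another screened class. The screened classes were B cell, T cell, NK cell, dendritic cell, neutrophil, plasma cell, mast cell, endothelial and fibroblast. Endocrine, acinar, erythroid and monocyte markers were not screened, so hormone UMIs removed no droplet. Mixed droplets made up 37.2% of members and 19.7% of the remaining macrophages at 1 week, and 34.2% and 14.5% at 12 weeks, and members were deeper. Without mixed droplets 193 genes rose and 92 fell, and DNA replication rose in 32 of 45 cases and mitosis in 41 of 52. All 7 endocrine marker genes fell in members. Their RNA made up 3371 CPM in members against 21832 at 1 week and 822 against 5949 at 12 weeks. Of the remaining macrophages 11 at 1 week and 1 at 12 weeks had over 10% hormone UMIs and held 87.5% and 67.9% of all hormone UMIs. Without them the remaining level was 2832 CPM at 1 week and 1924 at 12 weeks. A single member at 1 week held 2420 of the 4333 endocrine marker UMIs of members, so the levels at 1 week rest on few cells in both classes.

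Members made up 6.28% of macrophages at 1 week (exact 95% binomial interval 4.99 to 7.77) and 2.35% at 12 weeks (1.67 to 3.21). With 1 library for each label there is no test between them, and the intervals cover counting error only. Thinned to 4000 UMIs, the shares were 3.88% of 1006 macrophages (2.77 to 5.26) and 1.44% of 1456 (0.895 to 2.20). Multi-gene members alone made up 4.34% (3.28 to 5.63) and 0.802% (0.428 to 1.37), while Mki67-only members made up 1.37% and 1.48%. At full depth the libraries thus differed in the share of multi-gene members while those of Mki67-only members were close. The Mki67-only cells were deeper at 1 week. Thinned to 4000 UMIs, they had a median of 1 cycle UMI at 1 week and 2 at 12 weeks. Their share at equal depth was not computed. At 4000 UMIs, 3 UMIs of the 5 genes other than Mki67 were found in 2.98% (2.02 to 4.23) and 0.618% (0.283 to 1.17). Median depth was 13340 UMIs in members and 7245 in the remaining macrophages at 1 week, and 10052 and 6876 at 12 weeks. Of the barcodes, 3 occurred in both libraries, 2 of them kept in both, and none was a member.

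**Figure D5:**
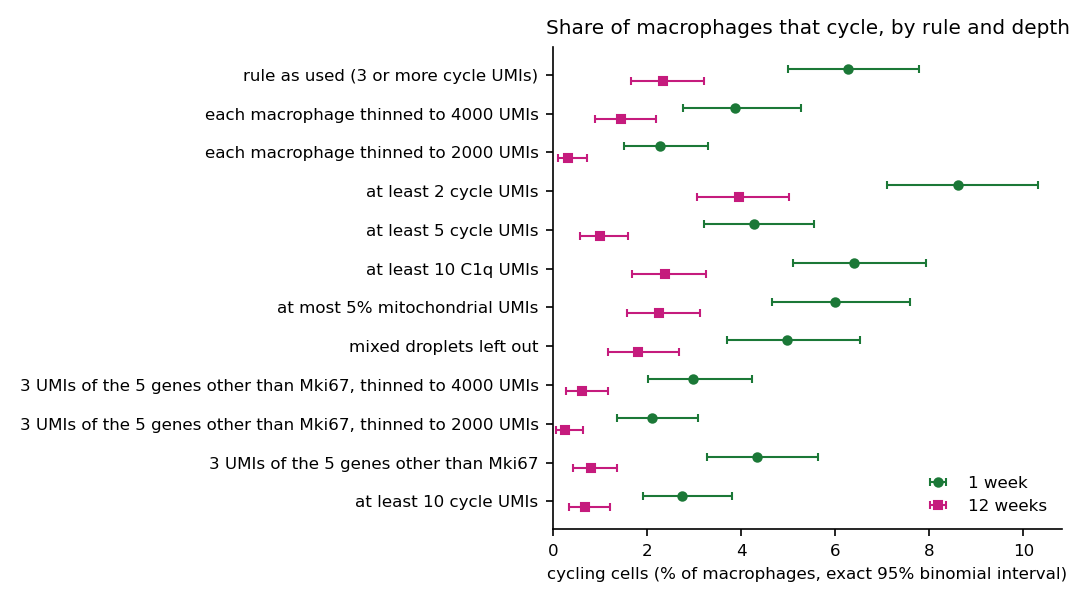
Share of macrophages that were members (horizontal axis, percent, with exact 95% binomial intervals) under the rule as used and under other thresholds, depths and filters (rows), in the 1-week (circles) and the 12-week (squares) library. The share is higher in the 1-week library in every row, 6.28% against 2.35% by the rule and 4.34% against 0.802% by the 5 genes other than Mki67.

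The multi-gene members of each library also differed in which part of the cycle their transcripts favoured. At 4000 UMIs a cell, 31 of 49 at 1 week had more UMIs of the replication list than of the mitosis list, 15 had fewer and 3 had as many. At 12 weeks 4 of 13 had more and 9 had fewer. Medians were 14 replication and 9 mitosis UMIs at 1 week and 10 and 16 at 12 weeks. Across members of all kinds the list values went together, with Spearman's rho of 0.65 over 73 members at 1 week and 0.47 over 38 at 12 weeks. These include the 17 and 24 Mki67-only members, which lie near 0 on both lists, so the mix of kinds enters the value. It is a description of cells that share a library, and it was not computed for multi-gene members alone. The 2 B cell marker-rich cells are among the 13, and both are among those with more mitosis UMIs. They had 10 replication and 52 mitosis UMIs, and 2 and 26. Their part in the difference was not tested, and no test between the libraries could be made.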

How the data were processed

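The deposited matrices hold raw UMI counts per gene and barcode, which the authors made with Cell Ranger on mm10, per the submitters' processing notes, and the file headers give version 3.1.0. The cell calling step is not described in these sources. The members, gene lists and tests were chosen with earlier results of these data known. Libraries held 12858754 UMIs in 1551 barcodes at 1 week and 12448628 in 1867 at 12 weeks. Each library is 1 pool of mice. With the library as a block, p-values measure how far the difference between classes varied between the libraries, with a spread borrowed mostly from other genes.

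Counts were summed per library and class, giving 1285478 and 412632 UMIs in members, and tested with edgeR 4.0.16 in R 4.3.3 (TMM, quasi-likelihood, library as block, Benjamini-Hochberg adjustment over all genes). The rule genes were not tested. The spread had 1 residual degree of freedom and a median of 77.1 prior degrees. The replicate numbers in the titles mark the libraries, so the block is the pairing of classes within a library. DESeq2 1.42.0 and other thresholds were alternatives. Thinning drew 4000 or 2000 UMIs a cell without replacement, leaving out shallower cells (5 of 78 and 0 of 38 members, 232 of 1165 and 164 of 1582 remaining macrophages at 4000). No doublet caller was run. An alternative left out mixed droplets, with at least 2 marker UMIs of any screened class named above. Named genes were, in each list, up to 4 called genes with the largest change and the same direction in both libraries, or with none called the 2 with the highest level, a fixed set of macrophage, antioxidant and cell cycle genes, and the 10 highest and 10 lowest called genes in no list with at least 20 CPM. Some genes, such as Cdk1, Prc1, Pcna, Cdk4, Il1a, Ccl3 and Bst2, were named outside this rule.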

Additional observations from a re-analysis of the deposited data

Results flagged for a closer look

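Among the kept cells outside the macrophage rule, 4 of 97 at 1 week (4.12%, exact 95% binomial interval 1.13 to 10.2) and 3 of 132 at 12 weeks held at least 3 cycle UMIs. These cells enter no comparison above.

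Il1b stood on opposite sides in the libraries. It was lower in members at 1 week (1109 CPM against 1489) and higher at 12 weeks (1893 against 1561), and the log2 ratio at 12 weeks exceeded that at 1 week by 0.70. The summed inflammatory list did the same, with 8546 CPM against 11210 at 1 week and 13293 against 10572 at 12 weeks, a difference of 0.72 between the log2 ratios. With 1 library for each time label these differences were not tested. Mki67-only members were 21.8% of members at 1 week and 63.2% at 12 weeks, and their Il1b level was 1592 and 2529 CPM against 848 and 863 in multi-gene members. The part of that mix in the difference was not tested.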

How the results depend on the processing

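The counts of genes called depended on the analysis more than their directions did. With the library left out of the model (no replicate block), 130 genes were higher and 0 lower by edgeR, with 628 and 354 at an unadjusted p under 0.05. The block holds the library, since the titles' replicate numbers mark the libraries, and no library can be left out because no residual spread would remain. The higher and lower calls were 167 and 41 by DESeq2, 177 and 109 at 4000 UMIs a cell, 85 and 87 at 2000, 219 and 80 with remaining macrophages matched to the depth of members, 193 and 92 without mixed droplets, and 202 and 114 with members by Top2a, Mki67, Birc5 and Ube2c. Lower calls alone moved by over 1.5 times to 145 with RLE size factors, 134 with at least 2 cycle UMIs, 371 with at least 5, 136 against macrophages with 0 cycle UMIs, 147 with at least 10 C1q UMIs and 517 with members by Pclaf and Rrm2. Among analyses added after the data were seen, lower calls were 472 with the 5 genes other than Mki67, 575 with at least 10 cycle UMIs and 89 without scaling factors.

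The share of members at 1 and 12 weeks was 3.88% and 1.44% at 4000 UMIs, 2.27% and 0.314% at 2000, 8.61% and 3.95% with at least 2 cycle UMIs, 4.26% and 0.988% with at least 5, 4.34% and 0.802% by the 5 genes other than Mki67, and 2.74% and 0.679% with at least 10. Without mixed droplets it was 4.98% at 1 week.

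Of 83 called genes that the text's rule names, followed over 17 alternatives, 1097 of 1385 values kept their call, 284 kept their direction only and 4 reversed, all of Il1rn: -0.18 with at least 5 cycle UMIs, -1.99 by Pclaf and Rrm2, -0.85 by the 5 genes other than Mki67 and -0.95 with at least 10. Among genes not called, the sign changed for the Ccnd2 log2 fold change (0.47 at 4000 UMIs, 0.085 at 2000, 0.010 with at least 10 C1q UMIs, 0.046 without scaling), Cdkn1b (-0.25 at 4000 UMIs, -0.34 at 2000, -0.27 without mixed droplets), Maf (0.094 at 4000 UMIs), Myc (0.66 at 2000 UMIs), and Axl and Cox4i1 (0.055 and 0.029 without scaling). The cause of these changes was not tested.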
